A study of Homo sapiens with 12 samples.

Results

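The endoplasmic reticulum (ER) senses misfolded proteins through membrane proteins, and the 9 genes described here encode members of that apparatus in its IRE1, ATF6 and CREB3 branches. *ERN1* encodes IRE1α, a kinase and endoribonuclease, and *XBP1* encodes the transcription factor whose mRNA IRE1α cuts. *ATF6* and *ATF6B* encode transcription factors that are held in the ER membrane until stress sends them to the Golgi apparatus. There the site-1 protease (*MBTPS1*) and the site-2 protease (*MBTPS2*) cut them, which frees the part that enters the nucleus. *CREB3* (Luman), *CREB3L1* (OASIS) and *CREB3L2* (BBF2H7) encode membrane-bound factors that are released by the same proteases. *CREB3L1* is known from bone-forming osteoblasts and *CREB3L2* from cartilage cells, where they drive genes of collagen and secretory transport. The genes were picked by name, all 9 were found among the 43236 gene symbols counted, and all 9 passed the filter on low counts that left 15979 genes for testing.

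The cells were HOS-MNNG (MNNG/HOS in the study's text), a chemically transformed osteosarcoma line, so every group came from the same single line. RNA was taken 6 h or 24 h after addition of DMSO, the solvent control (CT), or of NXP800, an oral small molecule that came from work on inhibitors of the HSF1 pathway and that the study's methods give at 300 nM. Each of the 4 groups (DMSO 6 h, NXP800 6 h, DMSO 24 h and NXP800 24 h) held 3 polyA RNA-seq libraries numbered 1 to 3. The labels do not say whether the replicates were separate cultures. The study's statistics section describes repetitions in general as independent experiments, and its RNA-seq methods speak only of replicates. The p-values measure the spread between these libraries, part of which may be technical.

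Counts on genes lay between 30810614 and 31947656 per library, so counting error was small for all members but *CREB3L1*. Values are given as CPM, a gene's count divided by the library's total in units of 1000000 counts, after TMM scaling, which corrects for differences in composition between libraries. Fold changes are log2 ratios with their standard error (SE) from edgeR's quasi-likelihood test, and a gene was called at a Benjamini-Hochberg adjusted p below 0.05 over all genes tested. Of the osteoblast markers reported here, *RUNX2*, *SPARC* and *SPP1* passed the filter, while *ALPL*, *BGLAP* and *IBSP* did not. Among markers of other cells, *PTPRC* (blood) had 0 to 5 counts per library, *CDH1* (epithelium) 0 to 2 and *PECAM1* (endothelium) 5 to 29, while *EPCAM* (epithelium) had 170 to 325. Of the read pairs, 6.66 to 8.14% at 6 h and 2.73 to 3.67% at 24 h were matched to no counted gene feature. Such pairs need not lie outside annotated genes. Time of treatment and this property of the libraries cannot be told apart.

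The first comparison asked how RNA levels of the members changed after 6 h of NXP800 compared with the DMSO control. Both genes of the IRE1 branch and *ATF6* rose, by between 1.81-fold and 6.10-fold, while *ATF6B*, the 3 genes of the CREB3 branch and both proteases did not pass the test. Of the 9 members, 3 were called higher and 0 lower, against 25% of all genes tested called higher and 27.8% called lower. With the replicate number as a block in the fit, 5 members passed, 4 higher and 1 lower, against 28.9% and 33.4% of all genes in that fit. The added calls were *CREB3L1*, higher, and *MBTPS1*, lower. In bulk RNA, a change in the share of cells that express a gene and a change in RNA per cell cannot be told apart.

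At 24 h 2 genes of the CREB3 branch had joined those that rose. *ERN1*, *XBP1*, *ATF6*, *CREB3L1* and *CREB3L2* rose, by between 1.55-fold and 3.55-fold. These 5 members were called higher and 0 lower, against 27.5% and 28.6% of all genes, and the count was 5 in every alternative run. With the replicate block 32% of all genes were called higher and 33.1% lower. *ATF6B*, *CREB3* and both proteases did not pass. The response at 24 h minus the response at 6 h was called for 3 members, against 12% of all genes called higher in that difference and 13.8% called lower. It was lower for *ERN1* and higher for *CREB3L1* and *CREB3L2*.

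**Figure D1:**
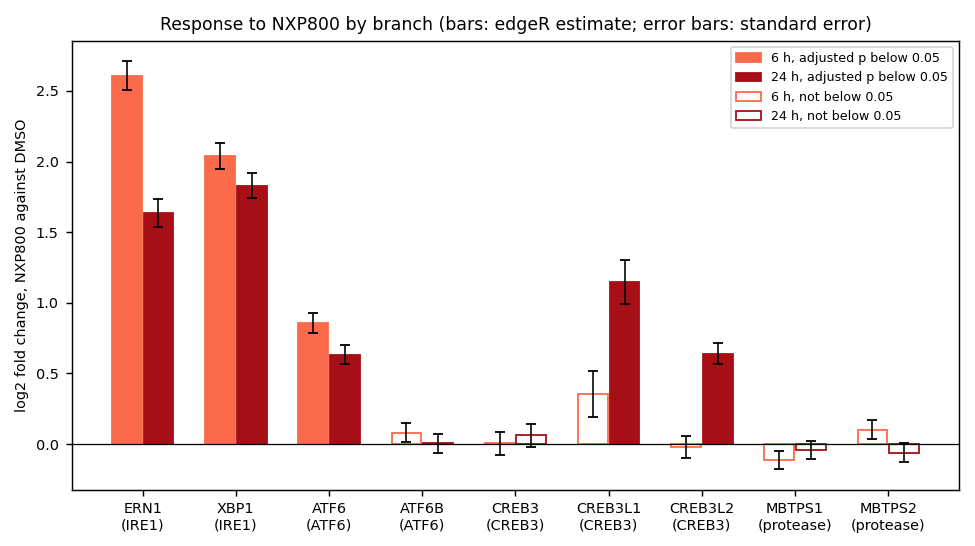
Log2 fold change of NXP800 against DMSO for the 9 genes at 6 h (light) and 24 h (dark), with the branch of each gene under its name. Bars are edgeR estimates, error bars are standard errors, and open bars did not pass an adjusted p below 0.05. The 2 IRE1 genes stand highest at both times, and *CREB3L1* and *CREB3L2* have filled bars at 24 h only.

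Within the IRE1 branch, *ERN1* (chromosome 17, 64039142 to 64130144, minus strand, GRCh38) encodes the sensor itself. Its DMSO 6 h libraries had 18.6, 16.3 and 16.5 CPM, and its NXP800 6 h libraries had 111, 103 and 99.7 CPM. The mean rose from 17.1 ± 1.25 to 104 ± 5.73 CPM (SD, n = 3), a log2 fold change of 2.61 (SE 0.10, adjusted p = 3.49e-11). That fold change was the 85th highest of the 15979 genes tested at 6 h. At 24 h the DMSO libraries had 21.8, 21.3 and 19.1 CPM and the NXP800 libraries 59.2, 76.2 and 57.5 CPM, a log2 fold change of 1.63 (SE 0.10, adjusted p = 1.71e-09). The lowest treated library stood above the highest control library at each time. Without overlap in this sense were also 62% of all genes at 6 h and 59.1% at 24 h. The response was smaller at 24 h than at 6 h, with a difference of -0.97 (SE 0.14, adjusted p = 0.000117). The control means at the 2 times, 17.1 and 20.7 CPM, lay far closer together than the treated means of 104 and 64.3 CPM. Replicate 2 of NXP800 24 h stood apart from the other two at 76.2 CPM, and without it the difference was -1.12.

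*XBP1* (chromosome 22, 28794560 to 28800569, minus strand) encodes the transcription factor of the branch. Its NXP800 libraries had 285, 269 and 244 CPM at 6 h against 68.3, 64.3 and 61.5 CPM in DMSO, and 231, 246 and 222 CPM at 24 h against 60.8, 60.0 and 76.0 CPM. The lowest treated library, at 222 CPM, stood far above the highest control library, at 76.0 CPM. The log2 fold change was 2.04 (SE 0.09) at 6 h and 1.83 (SE 0.09, adjusted p = 1.72e-10) at 24 h. The difference between these responses, -0.21 (SE 0.12, adjusted p = 0.232), did not pass the test.

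IRE1α acts on the *XBP1* mRNA by removing a short segment of the coding region, after which an RNA ligase joins the ends. The segment is shown because this step carries the signal from IRE1α to XBP1 and because counts per gene do not see it. As annotated, it lies on chromosome 22 from 28796128 to 28796153 (GRCh38, minus strand) and has 26 bases. In the lines below it is in capitals with 20 bases of transcript on either side, as annotated in GENCODE transcripts that keep or lack it.

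segment kept: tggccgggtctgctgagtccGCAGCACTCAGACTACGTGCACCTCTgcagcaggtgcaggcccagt

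segment removed: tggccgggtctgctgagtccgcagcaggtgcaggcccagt

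A length of 26 bases leaves a remainder of 2 after division by 3, so its removal shifts the reading frame. The transcript that keeps the segment codes for 261 amino acids and the one that lacks it for 376. The bases at its edges repeat, and 7 placements of the segment give the same joined sequence. The annotated placement need not be that at which IRE1α cuts. The study told the forms apart by RT-qPCR with separate forward primers and a shared reverse primer, and the forward primers show where the forms differ. Capitals mark, for the unspliced form, bases inside the segment as annotated and, for the spliced form, bases beyond the annotated junction.

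unspliced form: CAGACTACGTGCACCTCTgc

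spliced form: gctgagtccGCAGCAGGT

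The first of these primers matched the transcript with the segment and not the other, with 18 of its 20 bases in the segment as annotated. The second matched only the transcript without it and had 9 bases on each side of the annotated junction. At any other of the equivalent placements these numbers of bases would differ. With the shared reverse primer the products would have 139 and 130 bases. The counts per gene analysed here add both forms together. The rise of *XBP1* is therefore a rise of total *XBP1* RNA and gives no share of the spliced form. By RT-qPCR, the study reports a rise of both forms under NXP800 in MNNG/HOS cells. That was not tested here.

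In the ATF6 branch the 2 genes differed. *ATF6* (chromosome 1, 161766320 to 161964070, plus strand) had 81.0, 78.0 and 69.2 CPM in the NXP800 6 h libraries against 43.0, 42.0 and 41.0 CPM in DMSO. At 24 h it had 77.5, 76.0 and 75.7 CPM against 53.5, 46.8 and 47.3 CPM. Treated and control libraries did not overlap at either time, as held for 6715 of the 15979 genes tested. The log2 fold change was 0.86 (SE 0.07) at 6 h and 0.63 (SE 0.07, adjusted p = 1.32e-06) at 24 h. The difference of the responses was -0.22 (SE 0.10, adjusted p = 0.112), and it passed with the replicate block (-0.22, adjusted p = 0.0286) and without replicate 3 of NXP800 6 h (-0.29, adjusted p = 0.0441).

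*ATF6B* (chromosome 6, 32115264 to 32128246, minus strand), the close relative of *ATF6* that is cut in the same way, showed no called change. Its NXP800 6 h libraries had 67.8, 65.4 and 66.6 CPM and its DMSO 6 h libraries 60.4, 66.7 and 61.9 CPM. At 24 h these were 71.0, 80.5 and 81.9 CPM against 75.1, 80.1 and 77.6 CPM. The groups overlapped at both times, with log2 fold changes of 0.08 (SE 0.07, adjusted p = 0.322) and 0.0041 (SE 0.07, adjusted p = 0.962).

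In the CREB3 branch the members followed separate courses. *CREB3* (chromosome 9, 35732666 to 35736999, plus strand), the founding member of the family, stayed between 25.2 and 28.2 CPM in all 6 libraries at 6 h. At 24 h it had 30.6, 29.4 and 32.8 CPM in DMSO and 33.4, 28.4 and 35.1 CPM in NXP800. Its log2 fold changes were 0.0049 (SE 0.08, adjusted p = 0.965) and 0.06 (SE 0.08, adjusted p = 0.535), and the groups overlapped.

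*CREB3L1* (chromosome 11, 46277662 to 46321409, plus strand), the osteoblast factor OASIS, was the member with the fewest counts, 98 to 304 per library. At 6 h it had 4.91, 4.16 and 4.02 CPM in NXP800 and 3.99, 3.09 and 3.16 CPM in DMSO. The treated libraries stood just above the control libraries, and the log2 fold change of 0.36 (SE 0.16) did not pass (adjusted p = 0.0801). It passed with the replicate block (0.36, adjusted p = 0.0232), and also when only the 6 h libraries were fitted (0.0413), without replicate 1 of DMSO 6 h (0.0403) or without replicate 2 of NXP800 24 h (0.0392). At 24 h the values were 10.04, 7.18 and 9.25 CPM in NXP800 against 4.45, 4.10 and 3.40 CPM in DMSO. The groups did not overlap at either time, as held for 6715 of the 15979 genes tested. The mean was 8.82 ± 1.48 CPM against 3.98 ± 0.54 CPM, a log2 fold change of 1.15 (SE 0.16, adjusted p = 1.17e-05). The difference of the responses was 0.79 (SE 0.23, adjusted p = 0.0176), and without replicate 1 of DMSO 6 h it was 0.66 and no longer passed (adjusted p = 0.0576).

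*CREB3L2* (chromosome 7, 137874979 to 138002086, minus strand), the cartilage factor BBF2H7, showed no called change at 6 h and rose at 24 h. Its 6 h libraries had 41.3, 44.8 and 44.3 CPM in NXP800 and 46.2, 43.7 and 42.3 CPM in DMSO, with a log2 fold change of -0.02 (SE 0.08, adjusted p = 0.831). At 24 h the NXP800 libraries had 84.5, 94.6 and 87.5 CPM and the DMSO libraries 54.3, 53.5 and 63.3 CPM. The treated libraries were all above the control libraries at 24 h and overlapped them at 6 h. Of all genes, 59.1% had no overlap between treated and control libraries at 24 h. The log2 fold change at 24 h was 0.64 (SE 0.07, adjusted p = 1.97e-06) and the difference of the responses 0.66 (SE 0.11, adjusted p = 0.000277). Its control level was 44.1 ± 1.98 CPM at 6 h and 57.1 ± 5.43 CPM at 24 h, a difference that was not tested.

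The proteases that release ATF6 and the CREB3 factors moved little. *MBTPS1* (chromosome 16, 84053763 to 84116942, minus strand) had 129, 135 and 130 CPM in NXP800 and 147, 145 and 135 CPM in DMSO at 6 h. The treated libraries lay at or just under the lowest control library, with a log2 fold change of -0.12 (SE 0.06, adjusted p = 0.135) that passed with the replicate block (-0.12, adjusted p = 0.0375). At 24 h the log2 fold change of *MBTPS1* was -0.04 (SE 0.06, adjusted p = 0.584). *MBTPS2* (chromosome X, 21839617 to 21885423, plus strand) had 34.0 to 37.8 CPM in NXP800 and 32.5 to 34.6 CPM in DMSO at 6 h, and 27.2 to 29.98 CPM against 28.6 to 30.1 CPM at 24 h. Its log2 fold changes of 0.10 (SE 0.07, adjusted p = 0.227) and -0.06 (SE 0.07, adjusted p = 0.471) did not pass. Some of the exon bases of *ERN1* (4.62%), *ATF6B* (9.92%), *CREB3* (8.2%) and *MBTPS2* (13.4%) also lie in exons of other GENCODE genes, and reads there may have been assigned elsewhere. How the strand was used in counting is not given in the sources used here.

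**Figure D2:**
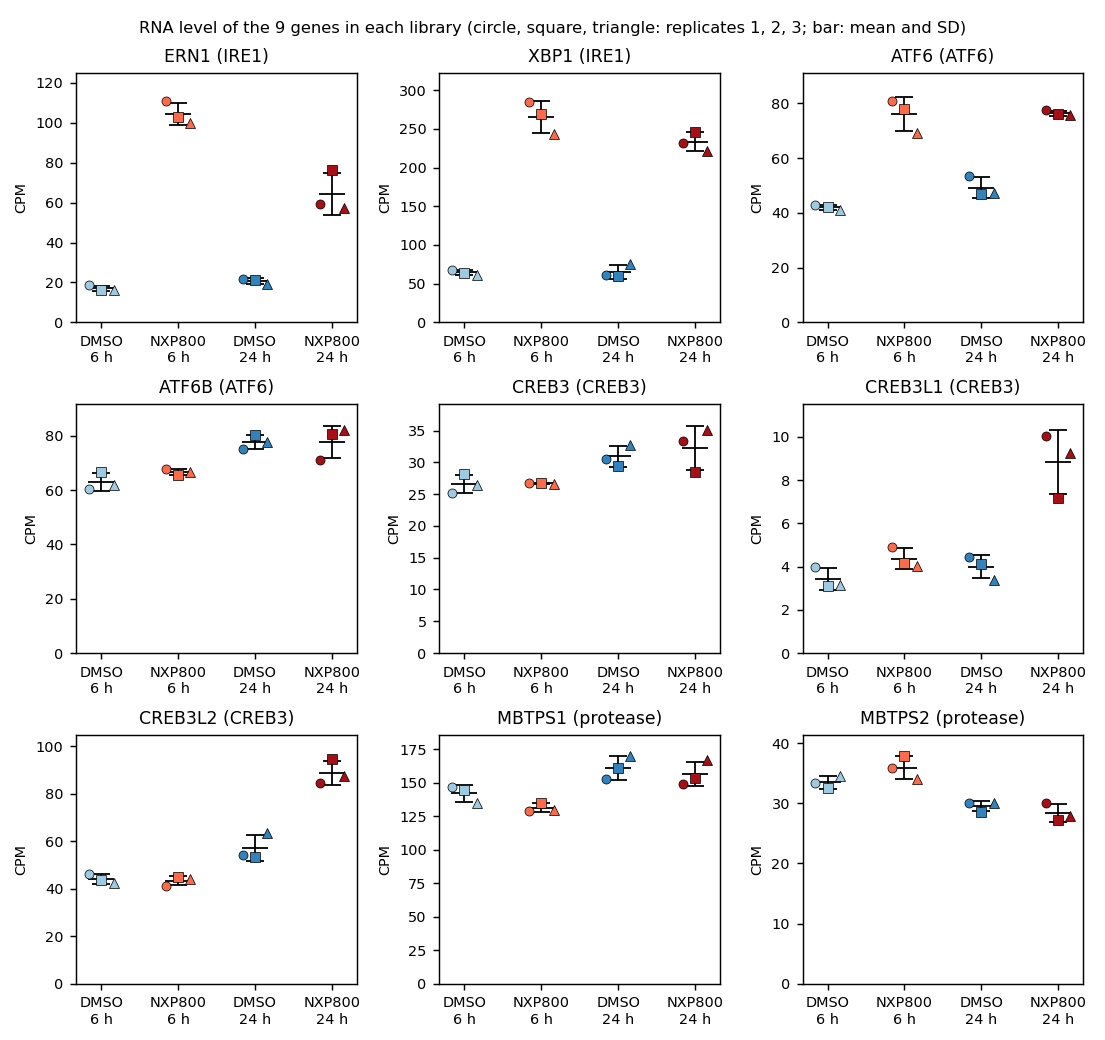
CPM of the 9 genes in each of the 12 libraries, 1 panel a gene, with each axis from 0. Circles, squares and triangles are replicates 1, 2 and 3, and bars are the mean and SD of 3 libraries. Treated and control libraries are apart at both times for *ERN1*, *XBP1*, *ATF6* and *CREB3L1*, and at 24 h but not at 6 h for *CREB3L2*. Of all 15979 genes tested, 6715 were apart at both times.

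Taken by branch, the median log2 fold change at 6 h was 2.32 for the 2 IRE1 genes, 0.47 for the 2 ATF6 genes, 0.0049 for the 3 CREB3 genes and -0.0072 for the 2 proteases. At 24 h these medians were 1.73, 0.32, 0.64 and -0.05. Over all genes tested the medians were -0.05 and -0.0033. The IRE1 branch therefore had the highest median at both times, and the CREB3 branch stood below the ATF6 branch at 6 h and above it at 24 h. No test was made of these medians, which rest on 2 or 3 genes each.

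Ratios of 2 members within a library do not depend on how libraries are scaled, and 6 such pairs were compared between NXP800 and DMSO. The test exchanged treatment labels within each time point in all 400 ways, two-sided, and p-values were adjusted over the 6 pairs. The smallest p it can give is 0.005, and within 1 time point alone it could not go below 0.1. *ERN1* against *ATF6* asked whether the sensors of different branches moved alike. Its log2 ratio went from -1.29 to 0.46 at 6 h and from -1.246 to -0.26 at 24 h, a mean change of 1.37 (exact permutation p = 0.005, adjusted p = 0.015). *ATF6* against *ATF6B* went from -0.58 to 0.19 at 6 h and from -0.66 to -0.02 at 24 h, a mean change of 0.70 (exact permutation p = 0.005, adjusted p = 0.015). The RNA of *ERN1* thus rose more than that of *ATF6*, and that of *ATF6* more than that of *ATF6B*. With labels exchanged only within pairs of the same number, 64 ways are left and the smallest p is 0.03125. Both pairs reached that value, which was an adjusted p of 0.0938.

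The other 4 ratios did not pass after adjustment. *XBP1* against *ERN1* fell from 1.92 to 1.35 at 6 h, where its libraries did not overlap, and had 1.66 in DMSO and 1.87 in NXP800 at 24 h, where they did, a mean change of -0.18 (exact permutation p = 0.255, adjusted p = 0.255). The change had opposite signs at the 2 times, -0.57 and 0.21. *CREB3L1* against *CREB3L2* changed by 0.37 at 6 h and 0.49 at 24 h, a mean of 0.43 that stood at the threshold (exact permutation p = 0.025, adjusted p = 0.05). It passed without replicate 1 of DMSO 6 h (0.47, adjusted p = 0.0375) and without replicate 2 of NXP800 24 h (0.52, adjusted p = 0.01). *CREB3* against *CREB3L2* changed by 0.03 at 6 h and -0.58 at 24 h (exact permutation p = 0.065, adjusted p = 0.0975), and it passed without replicate 1 of DMSO 6 h (-0.31, adjusted p = 0.0375). The ratio of the proteases, *MBTPS1* against *MBTPS2*, changed by -0.22 and 0.02 (exact permutation p = 0.18, adjusted p = 0.216).

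**Figure D3:**
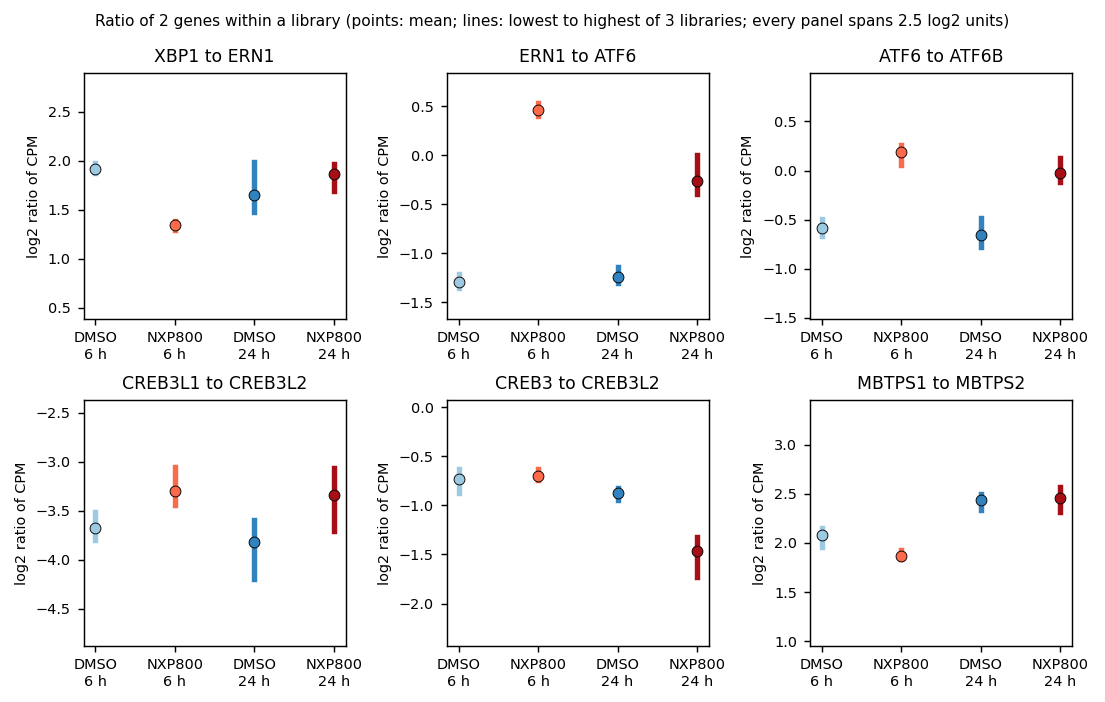
Log2 ratio of 2 genes within a library for 6 pairs, by group. Points are means and vertical lines run from the lowest to the highest of 3 libraries, and every panel spans the same range of the log2 scale. *ERN1* to *ATF6* and *ATF6* to *ATF6B* are higher in NXP800 at both times, whereas *XBP1* to *ERN1* is lower in NXP800 at 6 h.

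Levels of different genes were compared as CPM per kilobase of 1 annotated transcript a gene. In DMSO 6 h libraries *XBP1* stood highest with 36.1 ± 1.92 CPM per kb, followed by *MBTPS1* (32.5 ± 1.43), *ATF6B* (24.0 ± 1.25) and *CREB3* (17.8 ± 0.99). Lower were *MBTPS2* (7.53 ± 0.24), *CREB3L2* (5.93 ± 0.27) and *ATF6* (5.62 ± 0.14), and last came *ERN1* (2.17 ± 0.16) and *CREB3L1* (1.28 ± 0.19). Neighbours in this order did not overlap between libraries, except *CREB3L2* and *ATF6*. The order, here and in the other groups, also depends on the transcript length used, which the range between libraries does not measure. *MBTPS1*, for example, has 4377 bases in that transcript and 10274 in all its annotated exons, and *ATF6B* 2626 and 3629. In these libraries the sensor genes *ERN1* and *ATF6* thus had less RNA per length than the proteases that serve the ATF6 branch, and *ATF6B* had more than *ATF6*.

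The order differed in the other groups. With NXP800 at 6 h *XBP1* reached 148 ± 11.6 CPM per kb, and *ERN1*, at 13.2 ± 0.73, stood above *ATF6* (10.2 ± 0.82) and *MBTPS2* (8.08 ± 0.43). With NXP800 at 24 h *CREB3L2* (11.9 ± 0.69) stood above *ATF6* (10.2 ± 0.13) and *ERN1* (8.14 ± 1.31), with no overlap between neighbours. In DMSO 24 h libraries *MBTPS1* (36.8 ± 2.00) and *XBP1* (36.6 ± 5.05) overlapped, as did *MBTPS2* (6.66 ± 0.19) and *ATF6* (6.59 ± 0.50). *CREB3L1* was last in all 4 groups, from 1.28 to 3.30 CPM per kb. *EIF2AK3*, which encodes PERK, the sensor of the branch left out here, had 3.32 ± 0.03 CPM per kb in DMSO 6 h libraries and 4.38 ± 0.43 in NXP800 24 h libraries.

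**Figure D4:**
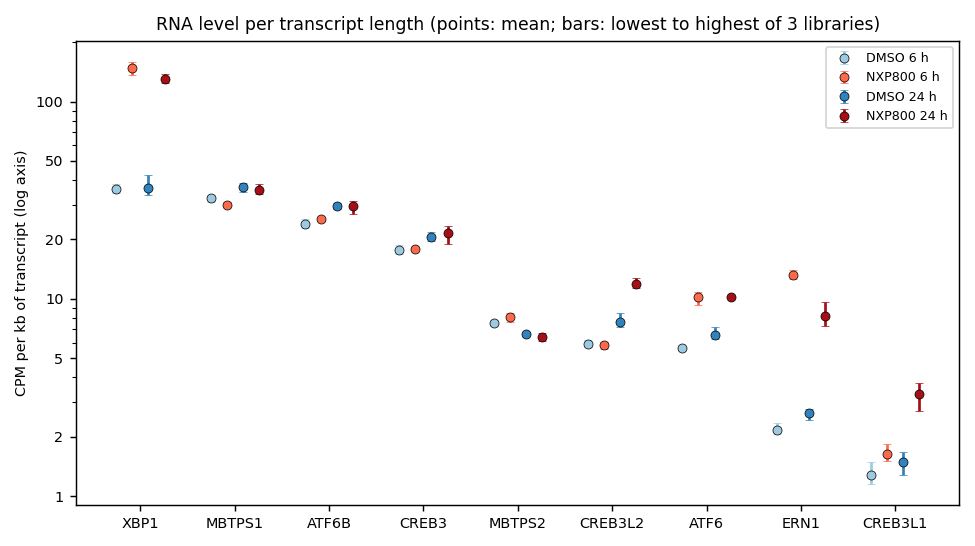
CPM per kilobase of transcript for the 9 genes in the 4 groups, on a log axis. Points are means and bars run from the lowest to the highest of 3 libraries, with genes in the order of their DMSO 6 h level. *CREB3L1* is lowest in every group, *XBP1* is highest in both NXP800 groups, and *ERN1* stands above *ATF6* in NXP800 at 6 h.

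Close relatives of the members were nearly silent or level. *ERN2* (IRE1β) had 0 or 1 count in every library and so did *CREB3L3*, the liver member of the CREB3 family. *CREB3L4* had mean levels of 9.62 ± 0.50 (DMSO) and 9.72 ± 0.47 CPM (NXP800) at 6 h, with log2 fold changes of 0.01 (adjusted p = 0.928) and, at 24 h, 0.05 (adjusted p = 0.753).

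Windows from 250 bases before to 50 after the annotated starts were searched for elements through which these factors are known to bind, with RefSeq sequence of GRCh38.p14. All 9 members had a window. The elements were ERSE (CCAAT, 9 bases of any kind, CCACG), which ATF6 and XBP1 bind together with NF-Y, and ERSE-II (ATTGG, 1 base, CCACG). The others were UPRE (TGACGTGG), the palindromic CRE (TGACGTCA) and CARE (TGATG, 1 base, AAT), the element of ATF4. Both strands were read and a palindrome was counted once. *XBP1* had an ERSE, a match held by 27 of 34943 windows of all genes (0.0773%), and *CREB3L2* had a CRE, held by 642 (1.84%). The other windows of the members held none of the 5 motifs, and no matches overlapped. For *CREB3L1* the window lies at a RefSeq start that is 17497 bases inside the gene as positioned above, so the sequence at the outer start of that gene was not searched. UPRE was held by 0.73% of all windows, CARE by 0.996% and ERSE-II by 0.0544%. Stretches of 120 bases are shown with the matches in capitals. Those of *XBP1* and of *HSPA5*, a classical target of ATF6 with the same element, run from -120 to -1 from the start site, and that of *CREB3L2* runs from -200 to -81.

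XBP1, chr22:28800570-28800689, minus strand: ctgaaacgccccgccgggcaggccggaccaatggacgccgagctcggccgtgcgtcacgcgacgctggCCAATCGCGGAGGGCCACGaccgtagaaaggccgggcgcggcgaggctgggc

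HSPA5, chr9:125241344-125241463, minus strand: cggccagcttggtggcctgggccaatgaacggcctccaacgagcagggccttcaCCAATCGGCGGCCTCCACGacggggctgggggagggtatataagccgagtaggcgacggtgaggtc

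CREB3L2, chr7:138002167-138002286, minus strand: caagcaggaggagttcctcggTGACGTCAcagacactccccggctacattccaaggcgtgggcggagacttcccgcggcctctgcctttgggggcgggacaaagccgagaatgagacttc

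The match of *XBP1* began at -52 from the start site, that of *HSPA5* at -66 and that of *CREB3L2* at -179. *HSPA5*, which encodes the ER chaperone BiP, went from 643 ± 35.7 to 1015 ± 74.6 CPM at 6 h and from 842 ± 181 to 1752 ± 196 CPM at 24 h. *XBP1* and *HSPA5* thus share the element and both rose. Among the listed genes, the element was also found in *HSP90B1*, *CALR*, *CRELD2* and *PDIA6*, which fell at both times, and in *SERP1*, which rose at 24 h. A match is a description of the letters and not a site in use.

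The genes on which the factors act are next, from lists written from general knowledge, with earlier results of these data known. Of 11 genes known as targets of XBP1, 1 was called higher and 6 lower at 6 h, against 25% and 27.8% of all genes, with a median log2 fold change of -0.26. *XBP1* itself rose 4.11-fold. *DNAJB9*, which encodes an ER co-chaperone that binds IRE1α, rose from 11.3 ± 1.09 to 23.6 ± 3.58 CPM (1.07, adjusted p = 1.25e-05). *WFS1* (-1.46), the translocon-associated gene *SSR1* (-0.60) and the translocon gene *SEC61A1* (-0.51) fell. *EDEM1*, which acts in the removal of misfolded glycoproteins, did not pass (0.30, adjusted p = 0.0597) but passed with the replicate block (adjusted p = 0.000347).

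At 24 h the same list had 6 called higher and 1 lower, against 27.5% and 28.6% of all genes, with a median of 0.19. With the replicate block *DNAJC3* was also called higher (0.22, adjusted p = 0.0149). *DNAJB9* (1.55), *SERP1* (0.70) and *EDEM1* (0.45) rose most and *WFS1* (-0.70) fell. The *EDEM1* libraries overlapped at 24 h, with 83.4, 133.5 and 96.1 CPM in NXP800 against 70.7, 86.5 and 71.9 CPM in DMSO. The difference of the responses was called higher for 6 of the 11 and lower for 0, with a median of 0.48, against 12% and 13.8% of all genes and their median of -0.0021. With the block 8 were called higher, against 18.4% of all genes, as *DNAJB9* (0.49, adjusted p = 0.0176) and *SEC61B* (0.22, adjusted p = 0.0393) also passed. It was 0.87 for *SSR1* (adjusted p = 8.55e-06), whose NXP800 libraries had 92.5 to 102 CPM at 6 h and 179 to 184 CPM at 24 h. It was 0.76 for *WFS1* (adjusted p = 0.00074) and 0.68 for *SEC61A1* (adjusted p = 3.28e-05). RNA of *XBP1* was close to its 6 h level at 24 h, at 233 ± 12.3 against 266 ± 20.7 CPM.

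Of 11 targets of ATF6, 3 were called higher and 6 lower at 6 h, and 4 higher and 6 lower at 24 h, with medians of -0.26 and -0.28. Among all genes 25% were higher and 27.8% lower at 6 h, and 27.5% and 28.6% at 24 h. *HSPA5* rose by 0.66 and 1.06 on the log2 scale, *HERPUD1* by 0.77 and 0.55, and *SEL1L* by 0.31 and 0.76. The last 2 genes act in the disposal of ER proteins. ER folding genes were among those that fell, with *PDIA4* at -0.996 and -0.66, *CALR* (calreticulin) at -0.69 and -1.08, *MANF* at -0.69 and -0.55 and *SDF2L1* at -0.86 and -0.36. Members of the list were thus called in both directions at both times, as were genes in general. The difference of the responses was called higher for 2 and lower for 0 of the 11, against 12% and 13.8% of all genes. With the replicate block it was called higher for 6 and lower for 1, against 18.4% and 20.9% of all genes in that fit. Of 4 genes of partners of ATF6 at the ERSE, *NFYC* rose (0.23) and *NFYA* fell (-0.49) at 6 h, and *NFYA* (-0.19) and *NFYB* (-0.34) fell at 24 h. *NFYC* was at -0.14 at 24 h, which passed with the replicate block only (adjusted p = 0.0190, against 0.0758 without it). *YY1* was at -0.04 and -0.07.

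Of 5 genes known to respond to factors of the CREB3 family, 4 were tested, and *COL1A2*, at no more than 0.30 CPM in a group mean, was not. At 6 h 1 was called higher and 2 lower, and at 24 h 2 and 2, against 25 to 28.6% of all genes called in each direction at each time. *SEC24D*, a coat gene of ER vesicles, had a log2 fold change of 0.15 (adjusted p = 0.196) at 6 h and rose by 0.62 at 24 h, and *ARF4*, a Golgi gene, rose by 0.23 and 0.42. *SEC23A*, which encodes the partner of SEC24 proteins, fell (-0.32 and -0.26). *COL1A1*, the collagen gene known as a target of OASIS in osteoblasts, fell at both times, at 6 h from 226 ± 29.2 to 159 ± 16.2 CPM (-0.50, adjusted p = 0.0133) and at 24 h from 465 ± 105 to 274 ± 58.2 CPM (-0.76, adjusted p = 0.000612). *CREB3L1* had no called change at the first of these times and rose at the second.

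The proteases also cut the SREBP factors of sterol synthesis, and the site-1 protease also cuts the precursor encoded by *GNPTAB*, an enzyme of lysosomal sorting. Of 7 genes of substrates and their regulators, 0 rose and 3 fell at 6 h, and 1 rose and 5 fell at 24 h, with medians of -0.18 and -0.45, against the same shares of all genes as above. *INSIG1*, a brake on SREBP cutting that SREBP factors themselves drive, fell by 0.77 and 1.69 on the log2 scale. *SREBF2* fell by 0.71 and *SREBF1* by 0.59 at 24 h, *GNPTAB* fell by 0.71 and 0.45, *SCAP*, whose product escorts SREBP factors to the Golgi apparatus, fell by 0.27 at each time (adjusted p = 0.00819 and 0.00724), and *SPRING1*, whose product helps to activate the site-1 protease, rose by 0.26 at 24 h.

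Of 9 genes that act with or after IRE1α, 1 rose and 2 fell at 6 h, and 1 rose and 3 fell at 24 h. Among all genes 25% rose and 27.8% fell at 6 h, and 27.5% and 28.6% at 24 h, so these counts are near or below the share of all genes. *MAPK8*, which encodes the kinase JNK, rose (0.68 and 0.25), and *MAP3K5*, which encodes the kinase ASK1 between IRE1α and JNK, fell (-1.19 and -1.12). The *MAPK8* libraries overlapped at 24 h, with 25.6 to 33.5 CPM in NXP800 and 25.0 to 26.0 CPM in DMSO. *PDIA6*, whose product damps IRE1α, fell (-0.48 and -0.64), and *TRAF2*, the adaptor that IRE1α recruits, fell at 24 h (-0.50, adjusted p = 7.80e-06) after -0.06 (adjusted p = 0.464) at 6 h. *PTPN1*, which encodes a phosphatase of the ER membrane, was called with the replicate block only, higher at 6 h (0.14, adjusted p = 0.0227) and lower at 24 h (-0.17, adjusted p = 0.0080). The ligase gene *RTCB*, named here after its values were seen, was at -0.08 (adjusted p = 0.369) and -0.10 (adjusted p = 0.257).

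PERK, which slows protein synthesis by phosphorylating eIF2α, heads the remaining branch of the same stress response. The steps after eIF2α, with *ATF4*, *DDIT3*, *PPP1R15A* and *TRIB3*, are shared with other eIF2α kinases such as GCN2, so these genes do not tell which kinase was active. By western blot, the study reports that eIF2α phosphorylation and the ATF4 rise under NXP800 were lost when GCN2 was silenced or inhibited. That was not tested here. Of *EIF2AK3* and those 4 genes, 4 rose at 6 h and 5 at 24 h, against 25% and 27.5% of all genes called higher. Their medians were 2.53 and 2.22, and those of all genes -0.05 and -0.0033. The study already reports *ATF4*, *DDIT3*, *PPP1R15A* and *TRIB3* as raised in these same data. These counts and medians are therefore a description only. *TRIB3* rose by 4.18 and 3.73, *DDIT3* (CHOP) by 3.05 and 3.01, *PPP1R15A* (GADD34) by 2.53 and 2.22 and *ATF4* by 0.66 and 0.51 on the log2 scale. The fold change of *ERN1* at 6 h lay between those of *PPP1R15A* and *DDIT3*. *EIF2AK3* itself stood at 15.1 ± 0.16 and 14.7 ± 0.61 CPM without and with NXP800 at 6 h and rose from 14.98 ± 0.79 to 19.9 ± 1.97 CPM at 24 h. Of the 3 classical sensor genes, *ERN1* and *ATF6* were thus called at 6 h, and PERK's at 24 h only, where the difference of its responses was 0.45 (adjusted p = 0.0145).

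**Figure D5:**
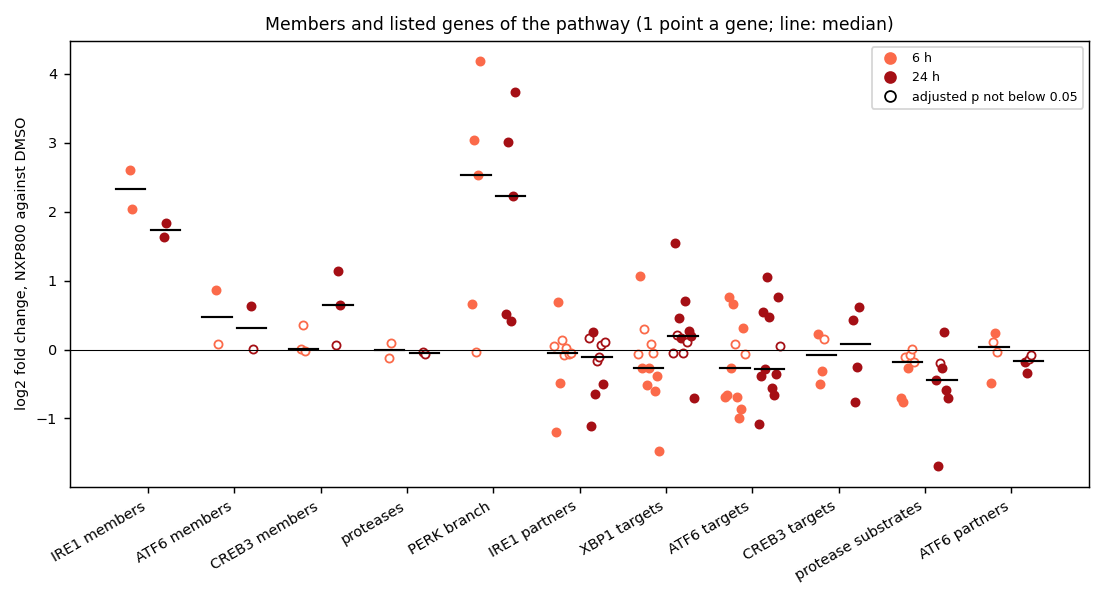
Log2 fold change of NXP800 against DMSO for the members by branch and for the listed genes of each pathway step, 1 point a gene, at 6 h (light) and 24 h (dark). Horizontal lines are medians and open points did not pass an adjusted p below 0.05. The XBP1 targets move from a median of -0.26 to 0.19, while the ATF6 targets stay split on both sides of 0.

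Genes whose log2 CPM followed a member most closely over the 12 libraries were sought by Pearson's r, leaving out genes whose mean log2 CPM lay below 1. The libraries fall into 4 groups, so r takes in the differences between groups and is given as a description. For *ERN1* the closest were *KDM6B* (0.994), *CTH* (0.992) and *TJP1* (0.992), for *XBP1* *LHFPL2* (0.995), *SRGAP1* (0.994) and *YPEL5* (0.994), and for *ATF6* *EIF1* (0.989), *CDC42EP1* (0.988) and *ARHGEF2* (0.987). For *CREB3L2* they were *LBX2* (0.980), *SND1* (0.980) and *GMPPA* (0.977), and for *CREB3L1* *DPF2* (0.963), *ZSWIM7* (0.958) and *NOP2* (0.958). For *ATF6B* they were *RFXANK* (0.963), *FAM3A* (0.956) and *TMEM187* (0.932), and for *CREB3* *MVB12A* (0.961), *PCSK1N* (0.953) and *TPP1* (0.939). For *MBTPS1* they were *HECTD3* (0.973), *WNK2* (0.972) and *PBXIP1* (0.968), and for *MBTPS2* *NAA50* (0.962), *CAV2* (0.954) and *USP38* (0.954). Among members, *ERN1*, *XBP1* and *ATF6* had r of 0.951 to 0.974 with each other. *ATF6* and *ATF6B* had 0.272.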

How the data were processed

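The deposited values are raw counts of read pairs per gene. The authors trimmed the reads with fastp (0.20.1 in the submitters' processing notes), aligned them with STAR (2.7.5a) to hg38 with a RefSeq annotation, and counted genes with HTSeq (0.12.4), after a strand-specific library kit. The deposited counts carry no normalization, and the strand setting used in counting is not given in the sources used here. The 5 counter entries that name no gene stayed out of library sizes and tests.

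Tests were run with edgeR 4.0.16 and limma 3.58.1 (R 4.3.3). After filterByExpr, 15979 genes were scaled by TMM and fitted in 1 model of the 4 groups (common dispersion 0.00723). Contrasts were NXP800 against DMSO within 6 h and within 24 h and the difference of these responses. Log2 CPM for ratios and correlations used a prior count of 2. No replicate was treated as a duplicate, since chi-square values per degree of freedom between replicates of a group lay from 7.36 to 26.4. The procedures were tried on simulated counts in which few genes changed, equally up and down, and libraries were not paired. In the real data many genes were called and libraries of the same number correlated. The simulation therefore does not speak for that setting. Alternatives were DESeq2 1.42.0 (Wald test, or its size factors in edgeR), library size only, no filter, at least 10 counts in every library, the libraries of 1 time point, an adjusted p below 0.01, a prior count of 0.5, the replicate block and each library left out in turn.

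Replicate numbers from the labels pair the libraries. After removal of group means, NXP800 and DMSO libraries with the same number and time correlated across genes with r of 0.159 to 0.329, and those with different numbers with r of -0.268 to 0.058. Genes are not independent replicates. The pairing has no other source than the numbers.

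Start and end positions of genes are from RefSeq on GRCh38. The position of the *XBP1* segment, exon overlaps and transcript lengths are from GENCODE on GRCh38, whose models can differ from the RefSeq models counted on. Lengths are those of MANE Select transcripts, except for *XBP1*, where the Ensembl canonical transcript was used. That exception was made after the annotation was seen. Promoter sequence is from RefSeq, and primers are those listed by the study.

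The members and lists were chosen with earlier results of these data known. Beside the members, the text names the PERK genes and close relatives, the 3 largest rises and falls among called genes of each list and time, and the 3 genes most like a member. *RTCB*, *YY1*, *HSP90B1*, *CRELD2*, *COL1A2*, *DNAJC3*, *SEC61B*, *PTPN1* and the markers that were not called are named outside that rule, after their values were seen. An osteoblast marker of the lists is not reported here.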

Additional observations from a re-analysis of the deposited data

Results flagged for a closer look

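For 3 members the response to NXP800 differed between 24 h and 6 h by the test of the difference itself. *ERN1* had a smaller rise at 24 h, with a difference of -0.97 (adjusted p = 0.000117), and it passed in every alternative run. *CREB3L2* had a larger rise at 24 h, with a difference of 0.66 (adjusted p = 0.000277), and it also passed in every alternative run. *CREB3L1* had a larger rise at 24 h, with a difference of 0.79 (adjusted p = 0.0176), which did not pass without replicate 1 of DMSO 6 h or at an adjusted p below 0.01. The share of read pairs matched to no counted gene feature differed between the times (6.66 to 8.14% at 6 h, 2.73 to 3.67% at 24 h). So did the share aligned to several places (1.86 to 1.99% against 2.96 to 3.37%). The part of these shares in the differences was not tested.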

How the results depend on the processing

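Of the values recomputed with 1 library left out in turn, 381 kept their direction and their side of the threshold, 8 changed sign, 6 passed where they had not, and 1 no longer passed. For the other alternatives these numbers were 209, 3, 4 and 3. Counts of members called are not among them. The count at 6 h was 3 to 4 with 1 library left out, being 4 without replicate 1 of DMSO 6 h or replicate 2 of NXP800 24 h, and 4 with only the libraries of the time point. The count in the difference was 2 without replicate 1 of DMSO 6 h and at an adjusted p below 0.01, 4 without replicate 3 of NXP800 6 h and with the block, and otherwise 3. The values that changed sign were not called in any fit. With the replicate block 5 members were called at 6 h instead of 3, and the ratios of *ERN1* to *ATF6* (1.37) and *ATF6* to *ATF6B* (0.70) had an adjusted p of 0.0938, because fewer arrangements are left. The block changed no other call of a member than those of *CREB3L1* and *MBTPS1* at 6 h and of *ATF6* in the difference of the responses. With only the libraries of the time point, *CREB3L2* at 6 h was 0.0116. With library size only, *MBTPS1* was 0.0486 and *MBTPS2* 0.0278 at 24 h. This scaling moved the median of all genes at 24 h by 0.09, and the members called were the same in number.

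Over the fits that left out 1 library, log2 fold changes at 6 h ranged from -0.0336 to 0.0472 for *CREB3*, from 0.26 to 0.48 for *CREB3L1* and from -0.0497 to 0.0152 for *CREB3L2*. At 24 h it ranged from -0.0342 to 0.0660 for *ATF6B* and from -4.27e-05 to 0.17 for *CREB3*. The difference of the responses ranged from -0.29 to -0.16 for *ATF6*, from -0.0047 to 0.14 for *CREB3* and from 0.66 to 0.91 for *CREB3L1*. The ratio of *CREB3L1* to *CREB3L2* ranged from 0.34 to 0.52, and that of *CREB3* to *CREB3L2* from -0.31 to -0.21. *CREB3L1* had the fewest counts of the members, with 98 to 304 per library, and the part of depth in its changes was not tested. The cause of the other changes was not tested.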

Other observations

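The osteoblast markers looked at to check the cell line also moved. *RUNX2*, the master transcription factor of the osteoblast lineage, rose from 22.7 ± 2.00 to 37.2 ± 2.95 CPM at 6 h, by 0.71 on the log2 scale, and by 0.36 at 24 h. *SPARC*, which encodes a matrix protein of bone, fell from 549 ± 67.3 to 317 ± 33.5 CPM at 6 h and from 455 ± 37.5 to 112 ± 23.3 CPM at 24 h, and the difference of its responses was -1.23 (adjusted p = 0.000113). *SPP1* (osteopontin) fell by 1.29 on the log2 scale at 24 h. *EPCAM*, an epithelial marker, rose from 5.78 ± 0.09 to 10.1 ± 0.06 CPM at 24 h (0.81, adjusted p = 4.85e-06), while *CDH1*, the other epithelial marker, stayed at 0 to 2 counts per library. *PECAM1*, an endothelial marker with few counts, was called lower at 6 h (-1.17, adjusted p = 0.0157).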
